A study of Mus musculus with 12 samples.

Results

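Neutrophils are drawn to inflamed tissue by chemokines and arrive with granules full of proteases and antimicrobial proteins. Macrophages take part in this response: they secrete neutrophil-attracting chemokines, and on stimulation they also make several proteins that are best known from neutrophil granules. The 5 genes described here, of 124 listed genes, stand for these steps. They are the chemokine gene *Cxcl5*, the receptor gene *Trem1*, and 3 genes for secreted or granule proteins, *Lcn2*, *Mmp9* and *Chil1*. They were chosen by name for these roles, but with earlier results of these data known. The counts set against the list below are therefore descriptions and no test of the 5 genes. All 124 were listed by the authors as genes that depend on NF-κB (how they were picked is not stated), so the 5 genes can be set against other genes of that list and not against the whole transcriptome.

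RNA was sequenced from thioglycollate-elicited peritoneal macrophages, cells recovered by lavage after an irritant has drawn them into the peritoneal cavity. *N4bp1*-/- cells came from C57BL/6J mice with a CRISPR-Cas9-made short deletion in an exon of *N4bp1*, a frameshifting allele carried by all cells of the animal, and *N4bp1*+/+ cells from wild-type C57BL/6J mice. The study used young adult mice of both sexes. Cells of each genotype were given R848 (20 ng/ml), a TLR7 ligand, or LPS (10 ng/ml), a TLR4 ligand, for 2 h, or were left unstimulated, with 2 mice for each of the 6 groups. The *N4bp1* transcript itself is not analysed here. N4BP1 has been described as a negative regulator of NF-κB signalling, and the genotypes were compared within each treatment to ask how its loss alters NF-κB-dependent transcripts.

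For each gene and group the files give 1 value, the authors' mean FPKM over both mice. FPKM scales a gene's fragment count to transcript length and library size, so levels of different genes can be compared. The values of single mice were not analysed here. The sequencing depth and the spread between mice are therefore unknown, no test between the genotypes was run, and every fold below is a ratio of 2 means that could not be set against the error between mice. A ratio of at least 2 in either direction is used as a description. The treatments are in separate tables, and whether they share 1 scale is not stated, so folds between treatments are descriptions as well. In a bulk sample, more cells of a type that makes a transcript cannot be told apart from more transcript per cell.

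After LPS, all 5 genes were at least 2-fold higher in *N4bp1*-/- than in *N4bp1*+/+ macrophages, against 16.1% of the 124 listed genes. After R848 this held for 4 of the 5, against 25% of the listed genes, and the exception was *Mmp9*. In unstimulated cells it held for 4 of the 5, against 35% of the 123 listed genes with a value above 0 in both genotypes, and the exception was *Lcn2*. None of the 5 was at least 2-fold lower in *N4bp1*-/- cells in any treatment. Few of the listed genes were so either, 0% without stimulus, 1.61% after R848 and 4.84% after LPS, so this does not set the 5 apart. The median log2 ratio of *N4bp1*-/- to *N4bp1*+/+ over the 5 genes was 1.41 after R848, 1.35 after LPS and 2.41 without stimulus. Over all listed genes with a ratio it was 0.28, −0.09 and 0.53 in the same order.

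**Figure D1:**
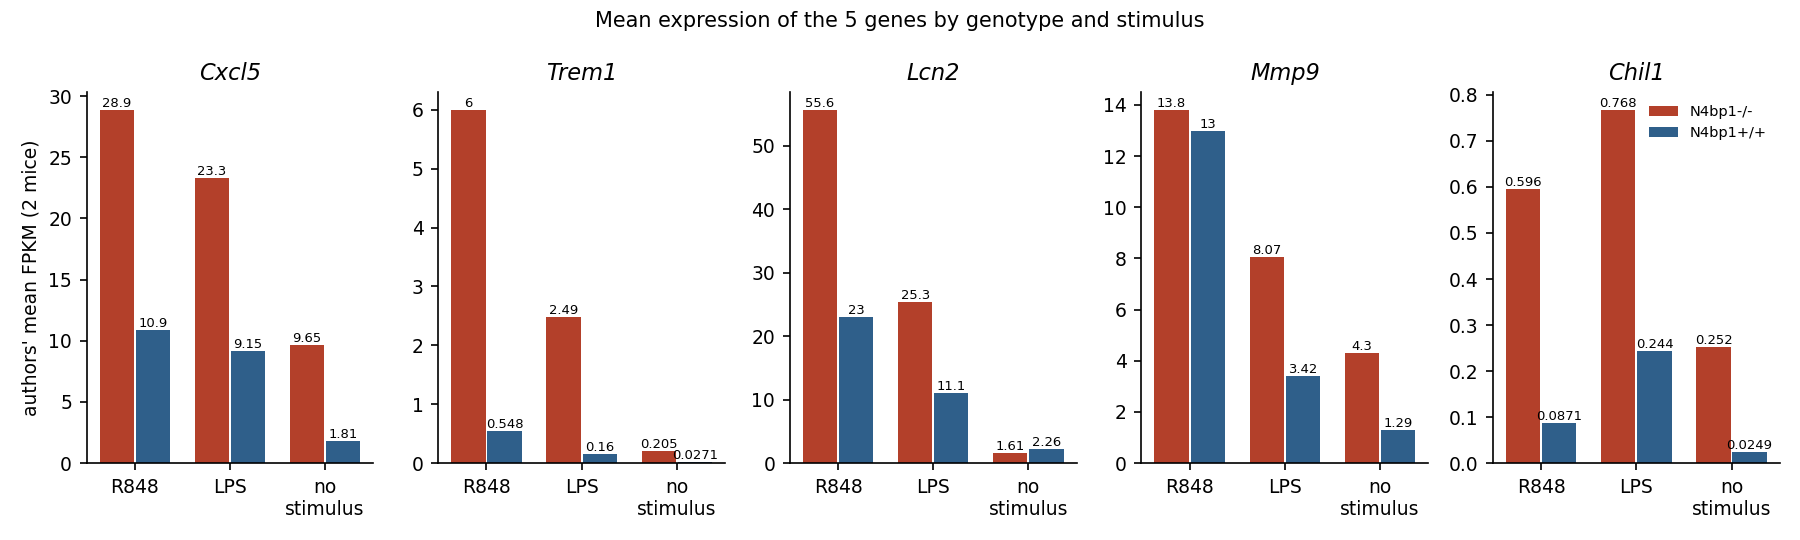
Bars give the authors' mean FPKM over 2 mice for each of the 5 genes, with a linear axis from 0 in each panel, for both stimuli and for unstimulated cells, in *N4bp1*-/- (red) and *N4bp1*+/+ (blue) cells. The *N4bp1*-/- bar is the higher one in every pair except *Lcn2* without stimulus (1.61 and 2.26 FPKM), and the bars of *Mmp9* after R848 are nearly level (13.8 and 13.0 FPKM).

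*Cxcl5* encodes a CXC chemokine that attracts neutrophils through the receptor CXCR2, and is known in the mouse as an LPS-induced chemokine. The gene lies on chromosome 5 (mm10, 90759360 to 90761624, forward strand, 4 exons). Its mean was 28.9 FPKM in *N4bp1*-/- against 10.9 FPKM in *N4bp1*+/+ cells after R848, 23.3 and 9.15 FPKM after LPS, and 9.65 and 1.81 FPKM without stimulus. In each treatment the *N4bp1*-/- mean was the higher one, and its ratio was largest before stimulation. The ratios were 2.66 after R848, 2.55 after LPS and 5.33 with no stimulus. The unstimulated *N4bp1*-/- mean was 88.7% of the *N4bp1*+/+ mean after R848 and 105% of that after LPS, so these 3 means lay close together. Stimulation gave a smaller fold in *N4bp1*-/- cells, 2.99 with R848 and 2.42 with LPS over no stimulus, than in *N4bp1*+/+ cells, 6.01 and 5.05. The log2 ratio of *N4bp1*-/- to *N4bp1*+/+ was thus lower than without stimulus by 1.00 with R848 and by 1.06 with LPS, and 15.4% and 23.6% of the listed genes had a ratio at least 2-fold smaller than without stimulus.

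*Trem1* encodes a receptor of neutrophils and monocytes that signals through the adapter DAP12 and amplifies responses to TLR ligands. It lies on chromosome 17 (mm10, 48232768 to 48246924, forward strand, 4 exons). Its mean was 6.00 FPKM in *N4bp1*-/- against 0.548 FPKM in *N4bp1*+/+ cells after R848, 2.49 and 0.160 FPKM after LPS, and 0.205 and 0.0271 FPKM without stimulus. *Trem1* was thus over 1 FPKM only in stimulated *N4bp1*-/- cells. The ratio of *N4bp1*-/- to *N4bp1*+/+ was 10.9 after R848 and 15.5 after LPS, the largest of all 124 listed genes after either stimulus. Without stimulus it was 7.56, with 3 listed genes above it, but there the file marks *Trem1* as having too few alignments to be tested, as it does 21 of the 124 genes. With 1 FPKM added to both means, the log2 ratio of *Trem1* was 2.18 in place of 3.45 after R848, 1.59 in place of 3.96 after LPS, and 0.23 in place of 2.92 without stimulus. It was then still the largest ratio after R848, but after LPS 3 listed genes were above it, led by *Ptges* at 2.09, and without stimulus 60 were. R848 gave the higher level in both genotypes, 2.41-fold over LPS in *N4bp1*-/- and 3.42-fold in *N4bp1*+/+ cells. Unlike *Cxcl5*, *Trem1* had the larger fold over no stimulus in *N4bp1*-/- cells: 29.3 with R848 against 20.2 in *N4bp1*+/+ cells, and 12.2 with LPS against 5.91.

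*Lcn2* encodes lipocalin 2, a protein of neutrophil granules that is also secreted by activated macrophages and that binds bacterial siderophores, which keeps iron from bacteria. It lies on chromosome 2 (mm10, 32384633 to 32388252, reverse strand, 6 exons). Its mean was 55.6 FPKM in *N4bp1*-/- against 23.0 FPKM in *N4bp1*+/+ cells after R848, 25.3 and 11.1 FPKM after LPS, and 1.61 and 2.26 FPKM without stimulus. It was the most abundant of the 5 transcripts in every stimulated group. The ratio of *N4bp1*-/- to *N4bp1*+/+ was 2.41 after R848 and 2.28 after LPS, whereas without stimulus it was 0.712, a log2 ratio of −0.49 at which 118 of the 123 listed genes had a higher one. Relative to the median listed gene the log2 ratio was −1.02 without stimulus and 0.99 after R848, so that *Lcn2* was then just short of 2-fold after R848 and the number of the 5 genes past 2-fold was 3 there, against 19.4% of the listed genes. The log2 ratio of *N4bp1*-/- to *N4bp1*+/+ was thus higher after stimulation by 1.76 for R848 and by 1.68 for LPS, and in both differences *Lcn2* was second among the 123 listed genes. At least a 2-fold larger ratio than without stimulus was found in 5.69% of the listed genes for R848 and 3.25% for LPS. These differences share the unstimulated groups. The fold over no stimulus was 34.6 with R848 and 15.8 with LPS in *N4bp1*-/- cells, against 10.2 and 4.91 in *N4bp1*+/+ cells. The unstimulated *N4bp1*-/- mean was 6.97% of the *N4bp1*+/+ mean after R848 and 14.5% of that after LPS.

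*Mmp9* encodes gelatinase B, a matrix-degrading protease that neutrophils store in granules and macrophages secrete. It lies on chromosome 2 (mm10, 164940780 to 164955850, forward strand, 13 exons). Its mean was 13.8 FPKM in *N4bp1*-/- against 13.0 FPKM in *N4bp1*+/+ cells after R848, 8.07 and 3.42 FPKM after LPS, and 4.30 and 1.29 FPKM without stimulus. The ratio of *N4bp1*-/- to *N4bp1*+/+ was 1.07 after R848, 2.36 after LPS and 3.32 without stimulus. Relative to the median listed gene the log2 ratio after R848 was −0.19, so its direction depends on the scaling. The log2 ratio after R848 was 1.15 below that after LPS, the lowest such difference of the 124 listed genes, and *Mmp9* was the single gene (0.806% of 124) whose ratio was at least 2-fold smaller after R848 than after LPS. Put the other way, R848 over LPS was 1.71-fold in *N4bp1*-/- and 3.79-fold in *N4bp1*+/+ cells. With 1 FPKM added to the means, the difference of the log2 ratios between R848 and LPS was −0.95, just short of 2-fold. The unstimulated *N4bp1*-/- mean was 126% of the *N4bp1*+/+ mean after LPS and 33.2% of that after R848. With LPS the fold over no stimulus was 1.88 in *N4bp1*-/- and 2.64 in *N4bp1*+/+ cells, and with R848 it was 3.21 and 10.0.

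*Chil1* encodes a chitinase-like secreted protein without chitinase activity, whose human counterpart YKL-40 is found in neutrophil granules. It lies on chromosome 1 (mm10, 134182176 to 134190181, forward strand, 10 exons). Its mean was 0.596 FPKM in *N4bp1*-/- against 0.0871 FPKM in *N4bp1*+/+ cells after R848, 0.768 and 0.244 FPKM after LPS, and 0.252 and 0.0249 FPKM without stimulus. *Chil1* stayed under 1 FPKM in all 6 groups and was the lowest of the 124 listed genes in *N4bp1*+/+ cells after R848. The ratio of *N4bp1*-/- to *N4bp1*+/+ was 6.84 after R848, 3.15 after LPS and 10.1 without stimulus, with 2, 8 and 2 listed genes above it. With 1 FPKM added to both means, the log2 ratio was 0.55 in place of 2.77 after R848, 0.51 in place of 1.65 after LPS and 0.29 in place of 3.34 without stimulus. It was the only one of the 5 genes with a higher mean after LPS than after R848, in both genotypes. The unstimulated *N4bp1*-/- mean was 289% of the *N4bp1*+/+ mean after R848 and 103% of that after LPS.

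**Figure D2:**
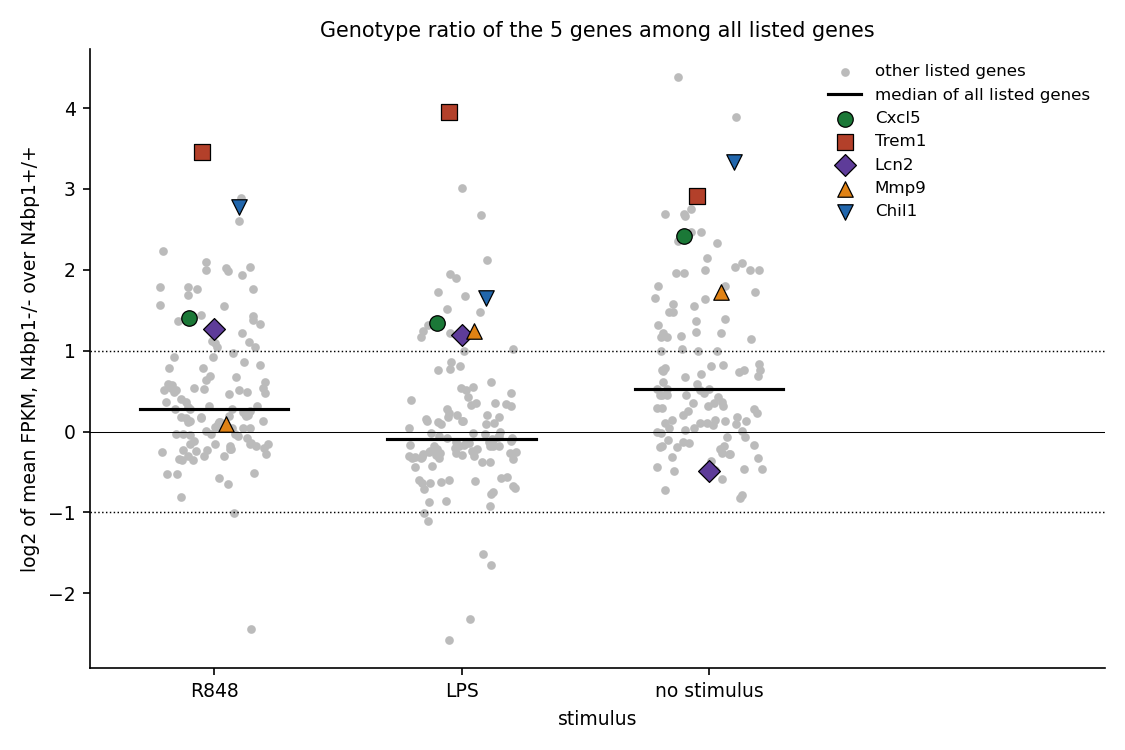
The vertical axis gives the log2 ratio of mean FPKM in *N4bp1*-/- over *N4bp1*+/+ cells for the listed genes under R848, LPS or no stimulus, with the 5 genes as large symbols, the other listed genes as grey dots spread sideways for legibility, the median of all listed genes as a bar, and a 2-fold ratio in either direction as dotted lines. *Trem1* is the highest point after R848 (3.45) and LPS (3.96), *Mmp9* lies near 0 after R848 (0.09), and *Lcn2* lies below 0 without stimulus (−0.49).

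The 5 genes did not share 1 pattern over the groups. *Cxcl5*, *Trem1* and *Chil1* were at least 2-fold higher in *N4bp1*-/- cells in all 3 treatments, as were 13 (10.5%) of the 124 listed genes. The unstimulated *N4bp1*-/- mean reached or passed the *N4bp1*+/+ mean after LPS for 4 of the 5, all but *Lcn2*, and for 15 (12.1%) of the 124. The margins were small, at 103% for *Chil1*, 105% for *Cxcl5*, 126% for *Mmp9* and 128% for *Trem1*. *Trem1* and *Chil1* were under 1 FPKM in both of these groups. The unstimulated *N4bp1*-/- mean reached the *N4bp1*+/+ mean after R848 for *Chil1* alone of the 5, and for 10 (8.06%) of the 124. R848 gave the higher mean than LPS in 4 of the 5 genes in either genotype, all but *Chil1*, and in 68 (54.8%) of the listed genes in *N4bp1*-/- and 47 (37.9%) in *N4bp1*+/+ cells. The log2 ratio of *N4bp1*-/- to *N4bp1*+/+ after R848 minus that after LPS was 0.06 for *Cxcl5*, 0.08 for *Lcn2*, −0.51 for *Trem1*, −1.15 for *Mmp9* and 1.12 for *Chil1*, with a median of 0.27 over the listed genes. Of the 124 genes, 15.3% had a ratio at least 2-fold larger after R848 than after LPS, among them *Chil1*. Relative to the median listed gene in each treatment, the differences of *Cxcl5* and *Lcn2* turned to −0.31 and −0.29. With 1 FPKM added, that of *Trem1* turned to 0.59, that of *Mmp9* was −0.95 and that of *Chil1* was 0.05.

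All 5 genes were at least 2-fold higher after R848 than without stimulus in both genotypes, as were 95.9% of the listed genes in *N4bp1*-/- and 99.2% in *N4bp1*+/+ cells. After LPS this held for 4 of the 5 in *N4bp1*-/- cells, all but *Mmp9*, against 86.2% of the listed genes, and for all 5 in *N4bp1*+/+ cells, against 91.1%. The median fold of the 5 over no stimulus was 3.21 with R848 and 3.05 with LPS in *N4bp1*-/- cells, and 10.0 and 5.05 in *N4bp1*+/+ cells. Over the listed genes the median fold was 7.27 and 8.93 in *N4bp1*-/- cells, and 8.94 and 13.2 in *N4bp1*+/+ cells. After LPS the 5 genes had a lower median fold than the list in either genotype.

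**Figure D3:**
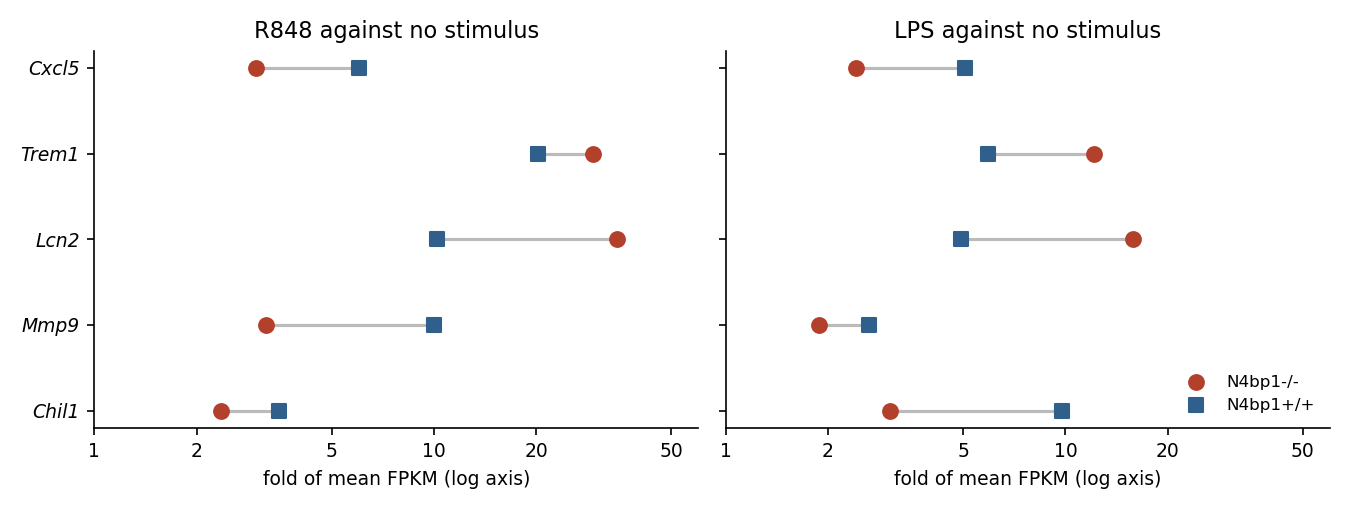
The horizontal axis (log scale) gives the ratio of mean FPKM after R848 (left) or LPS (right) to that without stimulus for each of the 5 genes, in *N4bp1*-/- (red circles) and *N4bp1*+/+ (blue squares) cells. *Lcn2* and *Trem1* have the larger fold in *N4bp1*-/- cells (34.6 and 29.3 with R848), and *Cxcl5*, *Mmp9* and *Chil1* in *N4bp1*+/+ cells, under both stimuli.

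Other listed genes of like profile were sought for each of the 5, as the root mean square difference between centred log2(FPKM + 0.1) values over the 6 group means. The groups share genotype and stimulus, so this is a description over 6 points. For *Cxcl5* the nearest genes were *Thbs1*, *C3* and *F11r*, at 0.20, 0.21 and 0.36, where the median listed gene was at 1.18. For *Lcn2* they were *Csf3*, *Olr1* and *Inhba*, at 0.49, 0.66 and 0.67, where the median was also 1.18. *Cebpd*, *Pdgfb* and *F11r* were nearest to *Mmp9* (0.46, 0.46 and 0.50, median 1.21), and *Serpina3n*, *C3* and *Thbs1* to *Chil1* (0.35, 0.43 and 0.44, median 1.33). For *Trem1* they were *Ccr7*, *Pdgfb* and *Serpina3n*, at 0.91, 0.93 and 1.00, with a median of 1.64. None of the 5 was among the 3 nearest genes of another, and the closest pair among them, *Cxcl5* and *Chil1*, was at 0.60. For *Trem1* this rests on a near tie, since *Serpina3n* and *Cxcl5* were both at 1.005. With a pseudocount of 1 in place of 0.1, 7 of these 15 neighbours were found again: 3 of 3 for *Cxcl5*, 2 for *Mmp9*, 1 each for *Trem1* and *Chil1* and 0 for *Lcn2*. *Trem1* was then nearest to *Csf3* and *Ccr7*, both at 0.48 (median 1.24), and *Lcn2* to *Il10* at 0.37 (median 1.15).

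Of a list of 20 genes for neutrophil recruitment and production, 10 have values, *Cxcl5* among them. Of the other 9, 2 were at least 2-fold higher in *N4bp1*-/- cells after R848, 1 after LPS and 3 without stimulus. Over all listed genes with a ratio the shares were 25%, 16.1% and 35%, so these counts do not set the 9 apart. The recruitment list had 0 genes at least 2-fold lower in any treatment, against 1.61%, 4.84% and 0% of all listed genes. *Csf3*, which encodes G-CSF, the growth factor of neutrophil production, had 7.92 FPKM in *N4bp1*-/- against 2.00 FPKM in *N4bp1*+/+ cells after R848 and 2.23 and 1.23 FPKM after LPS. Without stimulus *Csf3* was past 2-fold at only 0.0375 and 0.0135 FPKM, where it is marked as having too few alignments. The complement gene *C3* was the one gene of these 9 past 2-fold in every treatment, with ratios of 2.33 after R848, 2.53 after LPS and 4.10 without stimulus. *Vcam1*, which encodes an adhesion molecule for leukocytes, was past 2-fold only without stimulus, at 2.11 and 0.476 FPKM, and its ratio was 1.21 after R848 and 0.966 after LPS. The chemokine genes *Ccl3* and *Ccl4*, the cytokine genes *Il1a*, *Il1b* and *Tnf*, which act on neutrophils or on the vessel wall, and *Ptafr*, the receptor gene of platelet-activating factor, stayed within 2-fold in all treatments. Among these, *Il1a* and *Il1b* had the lowest ratios after LPS, 0.528 and 0.550, at 1213 and 1160 FPKM in *N4bp1*-/- against 2295 and 2110 FPKM in *N4bp1*+/+ cells. The median log2 ratio of the 9 genes was 0.31 after R848, −0.22 after LPS and 0.14 without stimulus.

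Of a list of 22 genes for granule and antimicrobial secreted proteins, 9 have values, *Lcn2*, *Mmp9* and *Chil1* among them. Of the other 6, 1 was at least 2-fold higher and 1 at least 2-fold lower in *N4bp1*-/- cells after R848, and the same numbers held after LPS. Of all listed genes, 25% were higher and 1.61% lower after R848, and 16.1% and 4.84% after LPS. *Ptx3*, the gene of a soluble pattern recognition protein that neutrophils also store, had 34.0 FPKM in *N4bp1*-/- against 12.5 FPKM in *N4bp1*+/+ cells after R848, a ratio of 2.71, and 39.1 and 23.1 FPKM after LPS, a ratio of 1.69. *Orm1*, an acute phase gene, had a ratio of 2.86 after LPS at 0.894 and 0.312 FPKM, while *Orm2* and *Orm3* stayed within 2-fold. The 3 *Orm* genes are close copies of each other, and how reads were divided between them is uncertain. *Hamp*, the gene of the iron hormone hepcidin, was the lower one, at 0.0594 and 0.323 FPKM after R848 and 1.18 and 3.36 FPKM after LPS. *Plau*, the gene of urokinase, had ratios of 0.882 and 0.798. Without stimulus 2 of the 6 were at least 2-fold higher, against 35% of the listed genes with a ratio. They were *Orm1* at 0.683 and 0.266 FPKM and *Ptx3* at 0.108 and 0.0540 FPKM, the second of which is marked as having too few alignments. The median log2 ratio of the 6 genes was −0.22 after R848, −0.17 after LPS and 0.48 without stimulus.

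Of 6 regulators tied to genes of the *Lcn2* type, 5 have values and stayed within 2-fold in all treatments. *Nfkbiz* encodes IκBζ, a nuclear cofactor needed for *Lcn2* induction in mouse macrophages. Its ratio of *N4bp1*-/- to *N4bp1*+/+ was 1.53 after R848, at 304.8 and 198.9 FPKM, 0.993 after LPS, at 229.3 and 230.9 FPKM, and 1.69 without stimulus, at 3.48 and 2.06 FPKM. *Cebpd*, the gene of the transcription factor C/EBPδ, had ratios of 1.40, 1.99 and 1.78 in the same order. *Nfkb1*, *Rel* and *Bcl3*, which encode NF-κB subunits and a nuclear IκB protein, had ratios between 0.838 and 1.37 over the 3 treatments.

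**Figure D4:**
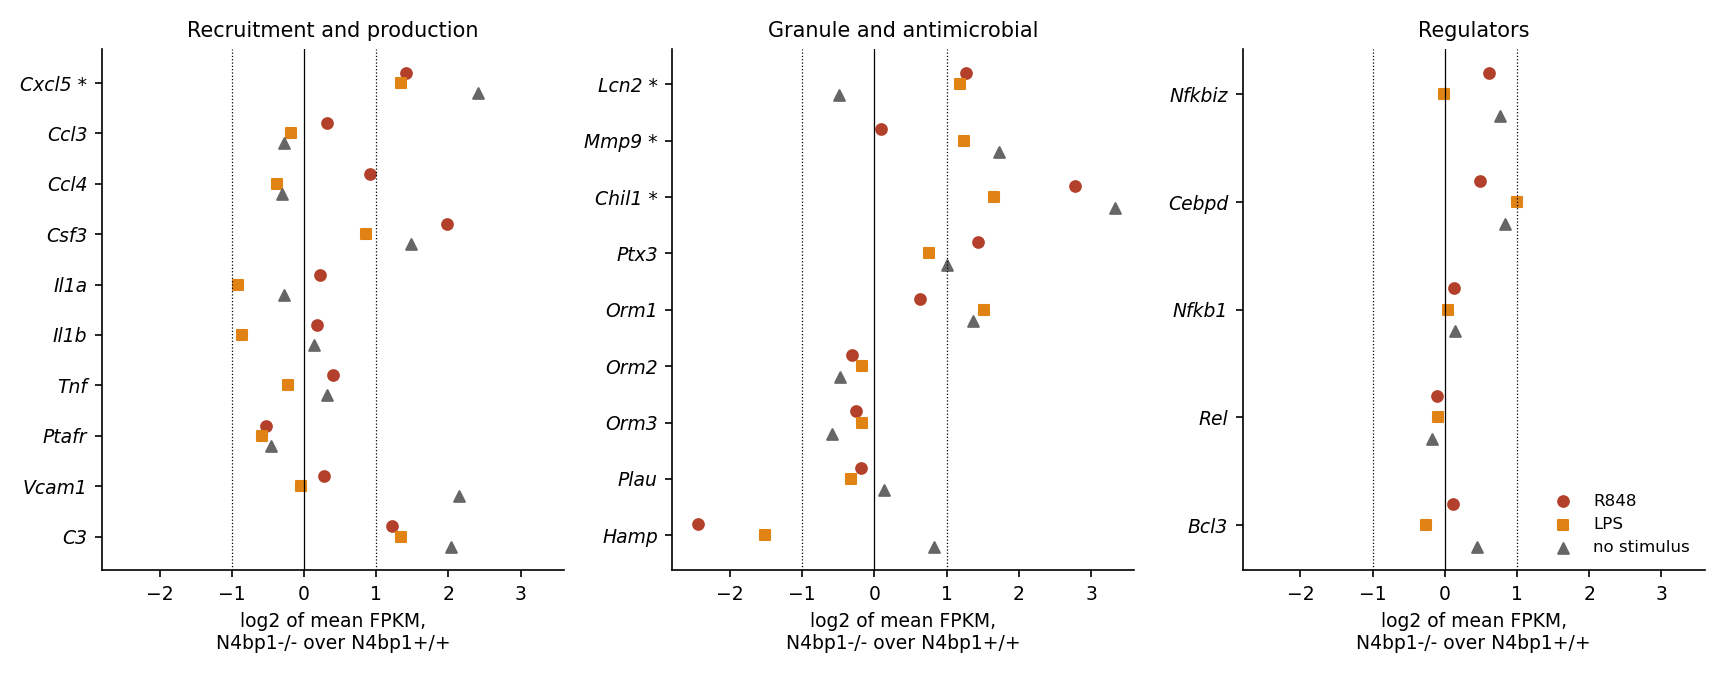
Each row is a gene of 1 of the 3 lists, with its log2 ratio of mean FPKM in *N4bp1*-/- over *N4bp1*+/+ cells after R848 (circles), after LPS (squares) and without stimulus (triangles), and asterisks mark 4 of the 5 genes described here. Dotted lines mark 2-fold, which all 5 regulators stay within and which *C3* passes in every treatment.

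Promoter sequences of *Trem1*, *Lcn2* and *Chil1*, from 250 bases before to 50 bases after the start of transcription, were read from RefSeq (GRCm38.p6, the assembly of mm10). They are shown to set the 3 genes side by side, and are the 3 of the 5 genes with an entry in the RefSeq table. The RefSeq start of *Lcn2* lies 513 bases inside the GENCODE gene given above, so the whole *Lcn2* window lies within that gene. The starts of *Trem1* and *Chil1* lie 29 and 20 bases before the GENCODE gene. 3 motifs were searched on both strands: the NF-κB consensus, AP-1 as TGANTCA and C/EBP as TTGCNNAA. None of the matches found overlaps another. Of 32851 promoters of this length, 4.51% hold the NF-κB consensus, 7.81% AP-1 and 10.8% C/EBP. Of the 102 promoters of the 81 listed genes with a sequence, 25.5%, 24.5% and 11.8% do. Capitals mark the matches, each on the strand shown.
Trem1, chr17:48232489-48232788, forward strand: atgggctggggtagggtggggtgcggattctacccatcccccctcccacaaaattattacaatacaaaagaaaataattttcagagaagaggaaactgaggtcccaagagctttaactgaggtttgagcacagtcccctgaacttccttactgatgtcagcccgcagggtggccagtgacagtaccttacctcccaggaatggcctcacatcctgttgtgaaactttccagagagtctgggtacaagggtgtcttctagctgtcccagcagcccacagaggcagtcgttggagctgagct
Lcn2, chr2:32387690-32387989, reverse strand: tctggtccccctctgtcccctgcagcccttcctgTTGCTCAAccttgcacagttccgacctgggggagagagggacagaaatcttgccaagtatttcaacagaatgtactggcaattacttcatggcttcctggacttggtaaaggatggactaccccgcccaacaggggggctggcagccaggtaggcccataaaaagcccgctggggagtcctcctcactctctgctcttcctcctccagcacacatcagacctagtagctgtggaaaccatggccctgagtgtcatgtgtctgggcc
Chil1, chr1:134181906-134182205, forward strand: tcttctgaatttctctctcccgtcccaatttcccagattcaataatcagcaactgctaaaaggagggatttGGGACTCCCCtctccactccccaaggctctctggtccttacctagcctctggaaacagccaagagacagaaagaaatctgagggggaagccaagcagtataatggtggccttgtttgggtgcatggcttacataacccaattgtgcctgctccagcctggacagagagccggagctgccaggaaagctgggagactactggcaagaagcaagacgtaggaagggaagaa
The *Lcn2* window holds 1 C/EBP match, which begins 216 bases before the start, and the *Chil1* window holds 1 NF-κB consensus match, which begins 179 bases before it. The *Trem1* window holds 0 matches, which says only that these letters are not in this window.

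Few markers of cell types are among the listed genes. Those with values were all listed by the authors as genes that depend on NF-κB. Their levels therefore cannot tell which cells were in the cultures apart from how these cells responded. Of 12 defining neutrophil markers, such as *Ly6g*, *S100a8* and *Elane*, 0 are among the listed genes, so a share of neutrophils could not be looked for, and its part in the values of the 5 genes was not tested. The macrophage transcription factor gene *Spi1*, 1 of 7 macrophage markers, had 334.6 FPKM in *N4bp1*-/- against 387.7 FPKM in *N4bp1*+/+ cells after R848, 275.9 and 304.2 FPKM after LPS, and 154.5 and 166.7 FPKM without stimulus. Of 6 dendritic cell markers, 4 have values. *Ccr7*, *Ccl17* and *Ccl22* were at least 2-fold higher in *N4bp1*-/- cells without stimulus, where the median log2 ratio of the 4 was 1.84, while *Cd83* had 23.7 FPKM in *N4bp1*-/- against 32.6 FPKM in *N4bp1*+/+ cells. After R848 only *Ccr7* was past 2-fold, with a median of −0.30, and after LPS *Ccr7* was higher and *Ccl17* and *Ccl22* were at least 2-fold lower, with a median of −1.20. *Ccr7* had 2.71 FPKM in *N4bp1*-/- against 0.366 FPKM in *N4bp1*+/+ cells after R848, 1.73 and 0.215 FPKM after LPS, and 0.942 and 0.0452 FPKM without stimulus. The summed level of the 4, most of it *Cd83*, was 321.8 FPKM in *N4bp1*-/- against 472.8 FPKM in *N4bp1*+/+ cells after R848, 307.7 and 536.2 FPKM after LPS, and 25.8 and 32.9 FPKM without stimulus. Of 3 stromal markers only *Sox9* has values, at 1.55 FPKM in *N4bp1*-/- against 0.255 FPKM in *N4bp1*+/+ cells, 1.49 and 0.234 FPKM, and 1.06 and 0.0713 FPKM in the same order. None of the markers with values was listed at 0 in a group. *Ccr7* and *Sox9* were higher in *N4bp1*-/- cells in all 3 treatments, as were *Cxcl5*, *Trem1*, *Mmp9* and *Chil1*. This held for 46 (37.1%) of the 124 listed genes, so it is a common pattern in the list. *Spi1* and *Cd83* were lower in *N4bp1*-/- cells in all 3 treatments. *Ccl17* and *Ccl22* were higher without stimulus and lower after R848 and LPS. *Ccl17* without stimulus, at 0.158 and 0.0682 FPKM, is marked as having too few alignments. The part of other cells in these values was not tested.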

How the data were processed

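Libraries of peritoneal macrophages (12 samples in 6 groups, from the genotype and treatment labels) were aligned by the authors with TopHat2 2.0.10 and assembled with Cufflinks (2.1.1), with CASAVA 1.8.2 also in the submitters' processing notes, and the genotypes were compared with cuffdiff. The build is mm10. No annotation or read filter is named in the sources used. The authors deposited FPKM values as 1 mean per group over 2 mice, for 124 genes, with a flag of whether a gene had enough alignments for their test. The columns of their own comparison (log2 fold changes, test statistics, p- and q-values) were not used. No depth, interval, replicate spread or test can be had from group means.

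Log2 ratios of mean FPKM were computed without a pseudocount or filter, with pandas 2.3.3 and numpy 2.4.6 under Python 3.11.15, and drawn with matplotlib 3.10.9. The code that calls ratios at 2-fold was run on simulated ratios placed well away from 2-fold. This checks the code only and says nothing about error between mice or about low FPKM. A single per-gene ratio against a mean listed at 0, *Il23a* in unstimulated *N4bp1*-/- cells, was left out. The genes named are the 5 genes, the 3 listed genes nearest in profile to each, and genes of the lists. Members and lists were chosen with earlier results of these data known. The labels of unstimulated libraries carry another prefix than the others; whether this marks a batch is not stated, and it cannot be told apart from the stimulus. Locus starts are from GENCODE M21, counted from 1. The promoter table matched 3 of the 5 genes; *Cxcl5* and *Mmp9* had no entry. Alternatives were pseudocounts of 0.1 and 1 FPKM, a minimum of 1 FPKM, folds of 1.5 and 4, 2 rescalings and the second deposited table, whose values were the same for all 124 genes.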

Additional observations from a re-analysis of the deposited data

How the results depend on the processing

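The counts of the 5 genes at 2-fold stayed within 1.5 times of the values given in 51 of 58 recomputations. This is a lenient measure, since a change from 5 to 4 genes stays within it. Some recomputations could not differ, because the second deposited values are the same, and most counts of lower genes were 0 throughout. With 1 FPKM added to both means, 2 of the 5 were at least 2-fold higher in unstimulated *N4bp1*-/- cells (*Cxcl5* and *Mmp9*), and 16 listed genes in place of 43. A minimum of 1 FPKM likewise left 2, with 27 of 91 listed genes, since *Trem1* and *Chil1* are below it there. With either setting, 3 of the 5 were at least 2-fold higher in *N4bp1*-/- cells after R848 and 4 after LPS. The shares of the listed genes were then 16.9% and 11.3% with 1 FPKM added, and 22.6% and 13.8% with the minimum. With 1 FPKM added, 3 were at least 2-fold higher after R848 and 2 after LPS than without stimulus in *N4bp1*+/+ cells, against 83.1% and 80.6% of the listed genes. At a fold of 4, 2 of the 5 were higher with either stimulus than without in *N4bp1*-/- cells, against 70.7% of the listed genes for R848 and 71.5% for LPS. Relative to the median listed gene, 1 of the 5, *Lcn2*, was at least 2-fold lower in unstimulated *N4bp1*-/- cells, and the listed genes split into 29 higher and 7 lower in place of 43 and 0. Rescaling subtracts 0.53 without stimulus, 0.28 after R848 and −0.09 after LPS for the median listed gene, or 0.13, 0.13 and −0.27 for the 41 genes of highest FPKM, and no called ratio of the 5 genes reversed, but *Lcn2* after R848 was at 0.99 relative to the median listed gene, which left 3 of the 5 past 2-fold. The log2 ratios of *Cxcl5*, *Lcn2* and *Mmp9* moved by less than 0.585 in every setting, and those of *Trem1* and *Chil1* moved by more with a pseudocount in 10 of 12 cases. With a pseudocount of 1, 7 of the 15 genes of like profile were found again. The settings for the differences between R848 and LPS were chosen after seeing the data. Leaving out a mouse could not be done with group means, and no paired analysis was possible because the files hold 1 mean per group.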
